A study of Mus musculus with 8 samples.

Results

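GRSF1 and the heterogeneous nuclear ribonucleoproteins (hnRNPs) F and H make up a small family of RNA-binding proteins that contact RNA through quasi-RNA recognition motifs (qRRMs). A qRRM has the fold of a common RNA recognition motif but grips short runs of guanines in single-stranded RNA. HNRNPF, HNRNPH1, HNRNPH2 and HNRNPH3 act mainly in the nucleus, where HNRNPF and HNRNPH1 are known regulators of splicing and polyadenylation, and HNRNPH2 is a close paralog of HNRNPH1. GRSF1 has a mitochondrial form that gathers with newly made mitochondrial RNA in RNA granules. The data below address whether the mRNAs of the other family members changed in muscle that had lost *Grsf1*.

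The 5 genes were chosen by name, and all array probes that carry a RefSeq transcript accession of these genes were taken, out of 22911 named genes on the array. They have 7 probes: 1 each for *Grsf1*, *Hnrnph1* and *Hnrnph3*, and 2 each for *Hnrnpf* and *Hnrnph2*. Each probe was a single spot per array. On each of the 8 arrays all 7 probes were well above background, with no spot flagged or saturated, so all members entered the test.

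Total RNA came from quadriceps muscle of 6 male mice aged 17 months, 3 Grsf1cKO and 3 WT, with n = 3 mice per genotype in the main analysis. The sample labels name the vastus intermedius and the paper names the rectus femoris. Grsf1cKO mice descend from Grsf1tm1a mice (C57BL/6N-Atm1Brd background). FLPo, a flippase under control of the Gt(ROSA)26Sor promoter, was used to cut out their LacZ and Neo cassettes. This left exons 4 and 5 of *Grsf1* between LoxP sites, and Myf5Cre, a Cre recombinase expressed from the *Myf5* locus in the muscle lineage, then deleted them. Cells of the tissue without Myf5Cre in their lineage keep an intact gene. Whether the WT mice carried floxed alleles or Cre is not given in the sources used here. Mouse 1 of each genotype was measured on a first and a repeat array, and their mean was used. The repeat array of Grsf1cKO 1 stood apart, with 88.9% of its spots above background against 66.3% to 73.1% on the other arrays. In bulk tissue, fewer cells of a type and less RNA per cell cannot be told apart.

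The promoter windows taken for the 5 genes, 1 per gene, differed in base composition. Windows of 300 bases, from 250 bases before the annotated start to 50 bases from the start on, were taken from RefSeq (GRCm38.p6), using the outermost start that the promoter table holds for each gene, which for *Hnrnph1* and *Hnrnph3* lies inside the annotated gene. The *Grsf1* window was 73.3% G and C and that of *Hnrnph3* was 73.0%, against a median of 52.7% over 27025 promoters. The *Hnrnph1* window was at 58.0%, *Hnrnpf* at 49.3% and *Hnrnph2* at 49.0%. The promoter table holds 2 windows for *Grsf1*, 4 for *Hnrnpf* and 5 for *Hnrnph1*, and their other windows were not examined. The windows of the deleted gene and of the relatives with a single window in that table, *Hnrnph2* and *Hnrnph3*, are printed to show both ends of this range, with matches on either strand to CCAAT and GGGCGG in capitals (CCGCCC and ATTGG are the same motifs on the other strand).
Grsf1, chr5:88676122-88676421, minus strand: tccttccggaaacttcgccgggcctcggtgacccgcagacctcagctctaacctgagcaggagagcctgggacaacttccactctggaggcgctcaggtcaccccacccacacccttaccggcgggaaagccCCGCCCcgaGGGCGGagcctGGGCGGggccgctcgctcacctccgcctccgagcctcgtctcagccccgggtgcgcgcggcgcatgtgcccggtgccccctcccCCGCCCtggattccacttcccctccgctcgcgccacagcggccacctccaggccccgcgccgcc
Hnrnph2, chrX:134600929-134601228, plus strand: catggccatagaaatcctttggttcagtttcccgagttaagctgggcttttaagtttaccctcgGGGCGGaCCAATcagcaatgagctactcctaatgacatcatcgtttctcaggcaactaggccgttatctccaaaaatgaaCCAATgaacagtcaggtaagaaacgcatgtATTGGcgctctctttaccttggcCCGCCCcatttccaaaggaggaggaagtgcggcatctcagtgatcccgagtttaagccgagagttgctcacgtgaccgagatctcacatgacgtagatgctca
Hnrnph3, chr10:63023800-63024099, minus strand: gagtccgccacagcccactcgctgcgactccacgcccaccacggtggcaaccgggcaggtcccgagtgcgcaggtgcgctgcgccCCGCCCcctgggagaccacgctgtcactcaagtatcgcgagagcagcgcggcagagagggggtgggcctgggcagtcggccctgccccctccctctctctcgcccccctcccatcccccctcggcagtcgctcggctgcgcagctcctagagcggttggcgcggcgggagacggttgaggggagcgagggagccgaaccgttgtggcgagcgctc
*Grsf1* had 4 matches to GGGCGG, *Hnrnph2* had 2, *Hnrnph1* and *Hnrnph3* had 1 each, and the *Hnrnpf* window had 0. This motif was found in 35.9% of all promoter windows. CCAAT matched 3 times in *Hnrnph2* and once in *Hnrnph1*, and was found in 38.0% of all windows. TATAAA was in the windows of none of the 5 genes and in 14.2% of all. The motifs did not overlap each other where they matched, and a match describes letters only.

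*Grsf1* fell in the muscle of every Grsf1cKO mouse. On the log2 scale its normalized signal was 12.15, 12.02 and 12.08 in Grsf1cKO 1 to 3 and 14.30, 14.25 and 14.27 in WT 1 to 3. Every Grsf1cKO mouse lay far below every WT mouse, and mice of a genotype lay close together (SD 0.06 in Grsf1cKO and 0.03 in WT). The log2 fold change was -2.19 (SE 0.0811, 95% confidence interval -2.39 to -1.99), which left 21.9% of the WT signal (95% confidence interval 19.1% to 25.1%). In limma the Benjamini-Hochberg false discovery rate (FDR) over 38888 tested probes was 0.00328. A probe was called changed where its FDR was under 0.2, its unadjusted p under 0.01 and its change larger than 1.5-fold, which held for 2 probes lower in Grsf1cKO muscle (0.00514% of those tested) and 1 probe higher (0.00257%). Only 0.0386% of tested probes had a larger change in either direction. The 2-sided exact permutation test over mice gave p = 0.1, the smallest p that 3 against 3 mice allow. The position of this probe relative to exons 4 and 5 was not established, and a probe outside the deleted exons does not check the deletion itself.

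**Figure D1:**
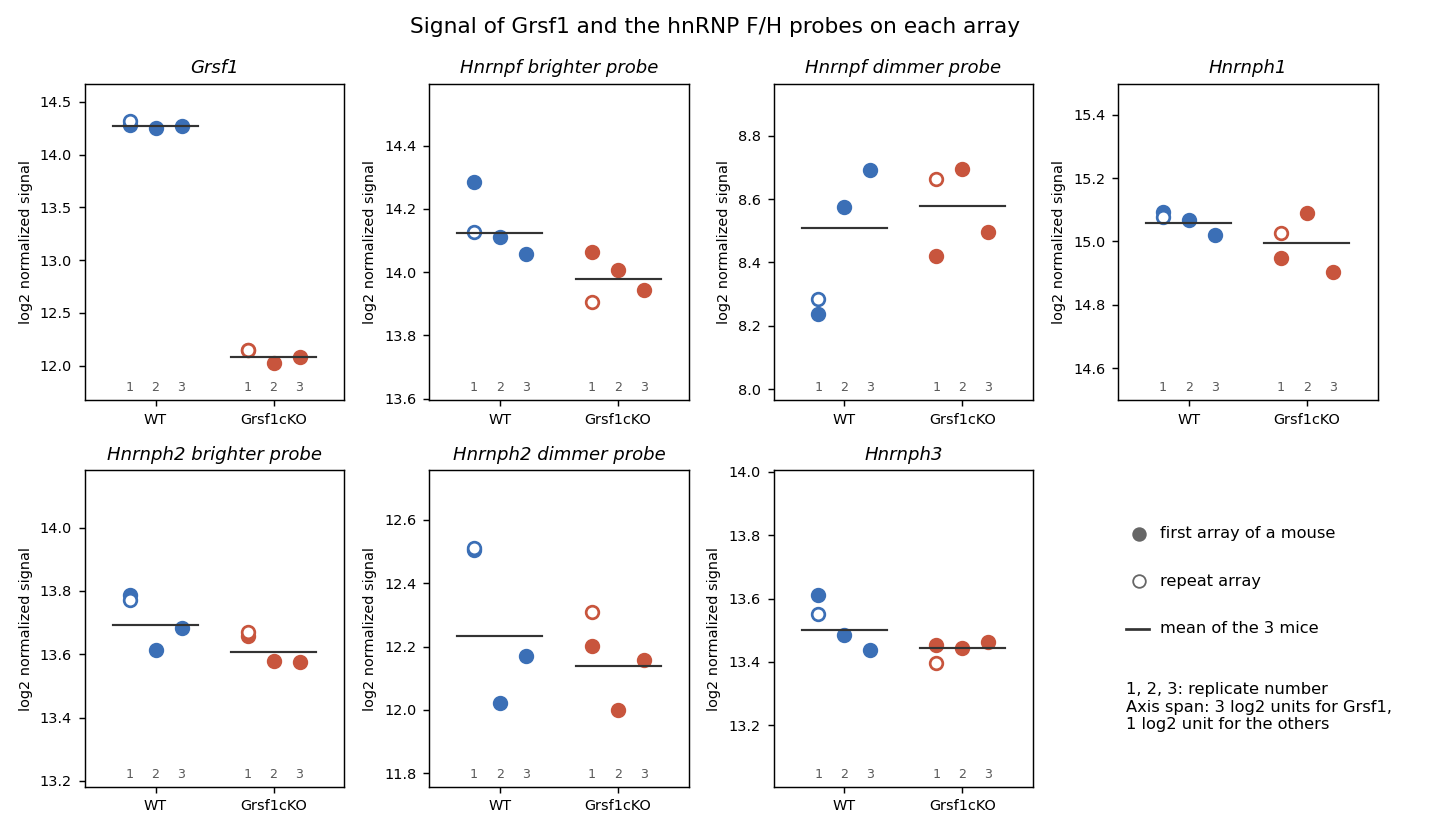
Log2 normalized signal (vertical axes) of the 7 probes on each of the 8 arrays, with WT in blue and Grsf1cKO in red; filled points are first arrays, open points are repeat arrays, digits are replicate numbers and lines are means of 3 mice. The *Grsf1* panel, on an axis with a wider span, shows the log2 fold change of -2.19, and those of the 6 relatives' probes lie between -0.15 and 0.07.

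For the 4 relatives, no change in Grsf1cKO muscle passed the test. Of their 6 probes, 0 were called and 0 had an unadjusted p under 0.05 in limma, with p from 0.130 to 0.636 and FDR of at least 0.996. Over all tested probes, 1.29% had an unadjusted p under 0.05 and were higher in Grsf1cKO muscle, and 2.96% were lower. The log2 fold changes ran from -0.15 to 0.07, and 5 of the 6 were below zero, although with unnormalized signal *Hnrnph1* (0.04), the brighter *Hnrnph2* probe (0.01) and *Hnrnph3* (0.06) were above it, where the median of all tested probes was 0.14. In the main analysis their median was -0.07, against -0.03 over all tested probes, of which 57.5% were below zero. Between 38.0% and 68.9% of all tested probes changed more than these probes did. The other settings for the analysis, 19 in all, also called 0 of the 6 probes. A call needs more than 1.5-fold, which no probe of the relatives reached in any setting, so these counts add little. In a *z*-test with a normal p, the brighter *Hnrnpf* probe had an unadjusted p of 0.0018 and an FDR of 0.0663. Both were under the limits for a call.

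HNRNPF binds guanine runs near splice sites and polyadenylation signals. Its brighter probe (A_51_P305997) gave 13.99, 14.01 and 13.94 on the log2 scale in Grsf1cKO 1 to 3 and 14.21, 14.11 and 14.06 in WT 1 to 3. The Grsf1cKO mice lay below the WT mice without overlap. The log2 fold change was -0.15 (SE 0.0836, 95% confidence interval -0.35 to 0.06, limma FDR 0.996). With unnormalized signal it was -0.03, where the median of all tested probes was 0.14. A lack of overlap with Grsf1cKO mice lower was found for 6.27% of probes measured in all 6 mice, and in the opposite direction for 3.08%. The separation depended on the repeat arrays: the first array of Grsf1cKO 1, at 14.063, was above WT 3, at 14.058. In both mice measured again, the repeat array gave a lower value, with a log2 difference from the first array of -0.16 in each. The first arrays of WT 1 and WT 2 were on another slide than all other arrays, and the log2 fold change was -0.11 on the shared slide, which holds 2 of the 3 WT mice, and -0.09 with the slide as a term, smaller there than that of the dimmer *Hnrnph2* probe (-0.20 and -0.13). The exact permutation test gave p = 0.1, again the smallest possible.

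The dimmer *Hnrnpf* probe (A_52_P141161) did not show the same direction. It gave 8.54, 8.69 and 8.50 in Grsf1cKO 1 to 3 and 8.26, 8.57 and 8.69 in WT 1 to 3, on the log2 scale. The lowest and one of the highest values were both from WT mice, and the genotypes overlapped. The log2 fold change was 0.07 (SE 0.138, 95% confidence interval -0.27 to 0.41, exact permutation p = 0.8), and it became -0.06 without WT 1. The difference between the changes of the *Hnrnpf* probes, 0.22 on the log2 scale, was within the spread of the mice (exact permutation p = 0.3). Probes bind with different strength, so signals of different probes are not read as relative mRNA levels, and below the brightest probe serves only to choose a gene to name.

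HNRNPH1 is a splicing regulator expressed in most cells. Its probe gave 14.99, 15.09 and 14.90 in Grsf1cKO 1 to 3 and 15.09, 15.07 and 15.02 in WT 1 to 3, on the log2 scale. Grsf1cKO 2 was level with the highest WT mouse and the other Grsf1cKO mice were below all WT mice. The log2 fold change was -0.06 (SE 0.0878, 95% confidence interval -0.28 to 0.15, exact permutation p = 0.4). It was -0.02 without Grsf1cKO 3 and -0.11 without Grsf1cKO 2.

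HNRNPH2, encoded on the X chromosome, was measured by a pair of probes. The brighter probe (A_55_P2845113) gave 13.66, 13.58 and 13.57 in Grsf1cKO 1 to 3 and 13.78, 13.61 and 13.68 in WT 1 to 3. Its log2 fold change was -0.09 (SE 0.0872, 95% confidence interval -0.30 to 0.13, exact permutation p = 0.2), and -0.04 without WT 1. The dimmer probe (A_55_P2133895) gave 12.26, 12.001 and 12.16 in Grsf1cKO 1 to 3 and 12.51, 12.02 and 12.17 in WT 1 to 3. On both probes WT 1 was the highest mouse, and the genotypes overlapped. On the dimmer probe the log2 fold change was -0.10 (SE 0.152, 95% confidence interval -0.47 to 0.28, exact permutation p = 0.6), which turned to 0.04 without WT 1. The changes of both *Hnrnph2* probes differed by -0.01 on the log2 scale (exact permutation p = 1.0). Probe sequences were not used here, so hybridization of *Hnrnph1* and *Hnrnph2* mRNAs to each other's probes was not tested.

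HNRNPH3 is a shorter protein than the other hnRNP H proteins. Its probe gave 13.42, 13.44 and 13.46 in Grsf1cKO 1 to 3 and 13.58, 13.49 and 13.44 in WT 1 to 3, on the log2 scale. The Grsf1cKO mice lay close together (SD 0.02), and WT 3 lay among them. The log2 fold change was -0.06 (SE 0.0824, 95% confidence interval -0.26 to 0.14, exact permutation p = 0.3), and -0.02 without WT 1.

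**Figure D2:**
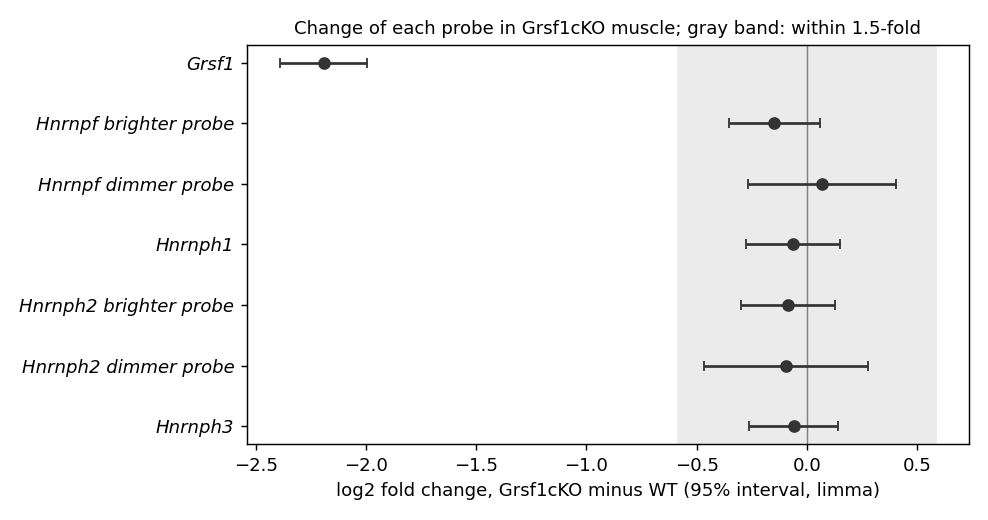
Log2 fold change in Grsf1cKO against WT muscle (horizontal axis) for each of the 7 probes, as points with 95% confidence intervals from limma with 3 mice per genotype; the gray band marks changes within 1.5-fold. *Grsf1* lies at -2.19, and the intervals of the 6 relatives' probes include zero and stay inside the band.

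A p-value above the threshold does not show that the relatives were unchanged, so the intervals are given as folds. The upper 95% limits of the fold change were 1.04 and 1.32 for the *Hnrnpf* probes, 1.11 for *Hnrnph1*, 1.09 and 1.21 for the *Hnrnph2* probes and 1.10 for *Hnrnph3*, each for Grsf1cKO over WT. The lowest lower limit was 0.724, for the dimmer *Hnrnph2* probe. All 6 intervals lay within 1.5-fold in either direction, as did those of 62.9% of all tested probes. An increase of 1.5-fold was therefore outside the interval of every relative's probe, while changes inside each interval were not resolved with 3 mice per genotype. In 18 alternative analyses that gave an interval, all 6 intervals stayed within 1.5-fold in 13. In the other 5, 1 interval crossed the limit: the upper limit of the dimmer *Hnrnpf* probe reached 1.61 with *z*-scores turned back by each array's own mean and SD, and the lower limit of the dimmer *Hnrnph2* probe fell to between 0.660 and 0.664 on the shared slide alone and without Grsf1cKO 1, WT 2 or WT 3.

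**Figure D3:**
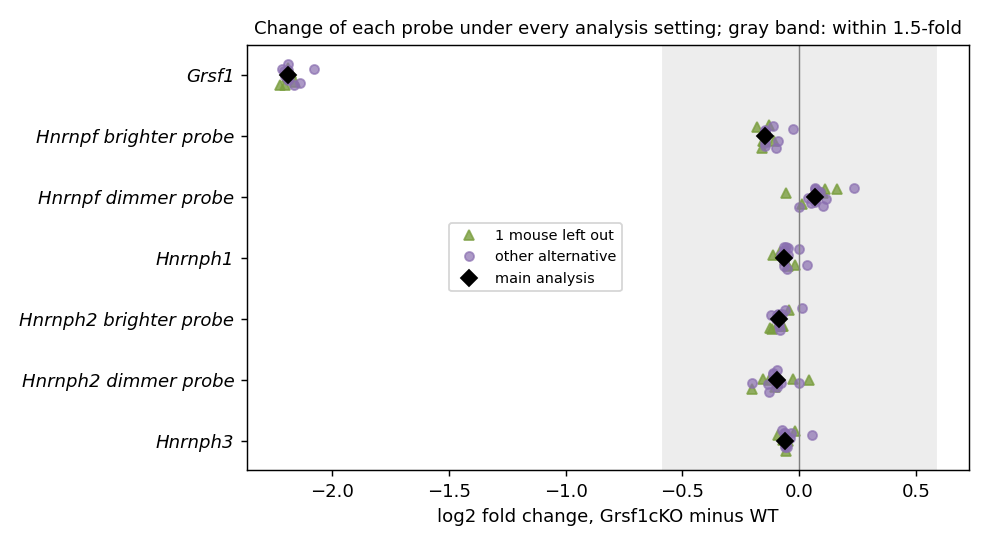
Log2 fold change (horizontal axis) of the 7 probes in the main analysis (diamonds), with 1 mouse left out (triangles) and in the other alternatives (circles); the gray band marks changes within 1.5-fold and vertical scatter within a row has no meaning. *Grsf1* stays between -2.22 and -2.08, and every value of the relatives' probes stays inside the band.

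Across the 6 mice, the relatives' probes were compared with *Grsf1* as a description, since the correlation mixes the genotype difference with the variation within a genotype. Pearson's r with *Grsf1* was 0.84 for the brighter *Hnrnpf* probe, 0.63 and 0.31 for the *Hnrnph2* probes, 0.56 for *Hnrnph3*, 0.47 for *Hnrnph1* and -0.25 for the dimmer *Hnrnpf* probe. Among 24829 named probes, 37 had r above 0.95, so none of the relatives was among those most like *Grsf1*. The highest were *Zfp729a* (r = 0.99), *Pde5a*, which encodes a phosphodiesterase that breaks down cyclic GMP (0.98), *Nr1d2*, a nuclear receptor of the circadian clock (0.98), *Wfdc8* (0.98) and *Nxf2* (0.98). Their log2 fold changes ran from -0.15 for *Zfp729a* to -0.58 for *Pde5a*, all smaller than that of *Grsf1* and none called. The most opposite were *Ttc21b* (r = -0.97), *Ulk3* (-0.97), *Ten1* (-0.97), *Adck2* (-0.97) and *Ank3* (-0.97). Some of these probes were dim, with mean log2 signals of 4.22 in WT and 4.92 in Grsf1cKO mice for *Ttc21b*. For *Nxf2* they were 5.97 and 5.45, and for *Wfdc8* 6.54 and 6.13. A tested probe needed only 3 mice well above background.

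Other proteins with qRRM-type domains were also without a call. Of 5 genes, *Esrp1*, *Esrp2*, *Rbm12*, *Rbm12b1* and *Rbm12b2*, 0 were called, and their median log2 fold change was -0.12. ESRP1 and ESRP2 are epithelial splicing regulators. *Rbm12b1* had a log2 fold change of -0.30 (SE 0.111, unadjusted p = 0.036, FDR 0.996 in limma), and the genotypes did not overlap (log2 signal 8.003 ± 0.03 in Grsf1cKO against 8.30 ± 0.17 in WT muscle, SD, n = 3). It did not pass the test. As 1 of 5 genes, it stands beside the 6.27% of probes over the whole array without overlap in this direction. Over all tested probes, 2.96% had an unadjusted p under 0.05 in limma and were lower in Grsf1cKO muscle. The brightest of the group, *Rbm12*, had a log2 fold change of -0.08.

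Of 23 other hnRNP genes, 0 were called and 0 had an unadjusted p under 0.05 in limma. Their log2 fold changes ran from -0.21 to 0.08 with a median of -0.05. Of the 23, 19 were below zero, as were 57.5% of all tested probes. In the next 3 groups, 10 of 12, 21 of 27 and 13 of 14 genes were below zero. *Pcbp1*, a poly(C)-binding protein gene and the brightest of the 23, had a log2 fold change of -0.08. Genotypes did not overlap for *Hnrnpa2b1* (-0.21, unadjusted p = 0.062 in limma) and *Hnrnpdl* (-0.18, unadjusted p = 0.121 in limma), both lower in Grsf1cKO means, which were named after their values were seen. These 2 of 23 genes stand beside the 6.27% of probes over the whole array without overlap in this direction, and 1 such gene was found in each of the next 3 groups.

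Genes for proteins that bind or unwind G-quadruplexes and G-rich RNA numbered 12, with 0 called and a median log2 fold change of -0.02. *Pif1*, which encodes a DNA helicase of the nucleus and mitochondria, had a log2 fold change of -0.27 (SE 0.0880, unadjusted p = 0.023, FDR 0.996 in limma) without overlap of the genotypes, and did not pass the test. *Cnbp*, a binder of G-rich sequences and the brightest of the group, was at -0.05.

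For proteins of mitochondrial RNA granules and mitochondrial gene expression, a chosen list held 27 genes, whose contact with GRSF1 was not tested. Of these, 0 were called and 0 had an unadjusted p under 0.05 in limma. Their log2 fold changes ran from -0.23 to 0.12 with a median of -0.04. *Fastk*, a regulator of a mitochondrial mRNA and the brightest of the group, was at -0.06. The genotypes did not overlap for *Fastkd1* (-0.16, unadjusted p = 0.107 in limma), named after its value was seen. Of 14 splicing regulators of muscle, 0 were called and 0 had an unadjusted p under 0.05, with a median log2 fold change of -0.08. *Rbfox1*, the brightest, was at -0.07, and *Rbm20*, a regulator of titin splicing named after its value was seen, was at -0.13 without overlap. With unnormalized signal the medians of these 5 groups were all above zero, from 0.03 to 0.10, below the 0.14 of all tested probes there.

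**Figure D4:**
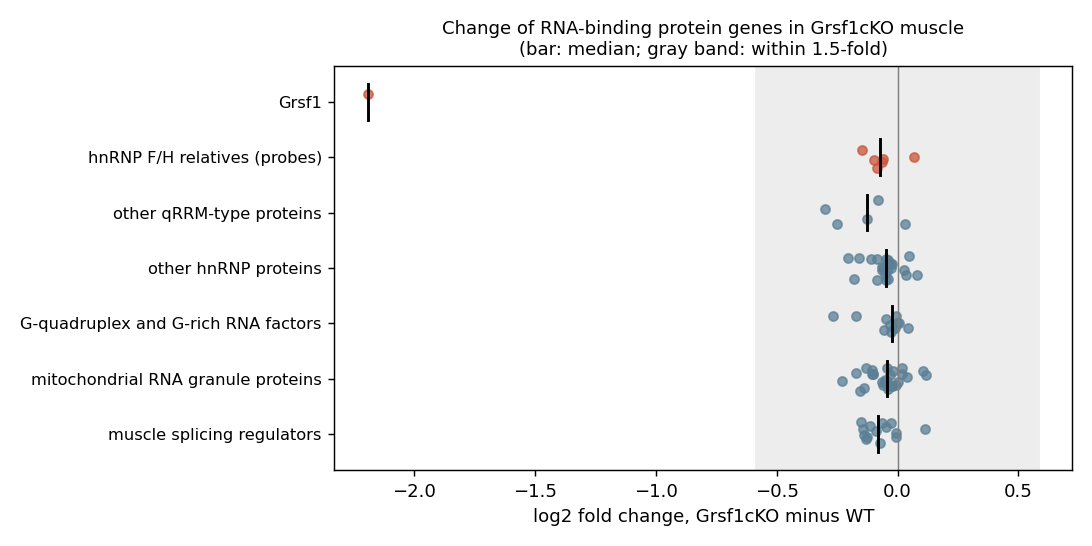
Log2 fold change in Grsf1cKO against WT muscle (horizontal axis) for *Grsf1*, the 6 probes of its hnRNP F/H relatives and the brightest probe of each gene in 5 other groups; points are probes, black bars are medians and the gray band marks changes within 1.5-fold. *Grsf1* stands alone at -2.19, and the medians of the other groups lie between -0.12 and -0.02, all above zero with unnormalized signal.

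Markers of the muscle fiber and of other cells in the tissue were read beside these values. Of 12 fiber markers, all were above background in all 6 mice, with log2 fold changes from -0.59 (*Myh7*) to 0.51 (*Tnnt1*) and a median of 0.03. Of the fast-fiber myosins, *Myh2* (0.19, higher) and *Myh4* (-0.05, lower) did not overlap between genotypes and *Myh1* (0.01) did, beside the array-wide shares without overlap of 3.08% higher and 6.27% lower. These 5 genes were named after their values were seen. The summed fiber signal did not overlap either, at 3313540 to 3342390 in WT and 3369790 to 3462140 in Grsf1cKO mice. These sums are of quantile-normalized signal, in which *Tnnt3* had an identical value in all 3 Grsf1cKO mice, and with 75th percentile scaling the median log2 fold change of the fiber markers was -0.09. All 5 fibroblast markers had log2 fold changes above zero (median 0.21, summed signal 270569 to 315448 in WT and 293040 to 318561 in Grsf1cKO mice), and so had 4 of 5 macrophage and leukocyte markers (median 0.19, summed signal 49298 to 58761 in WT and 48206 to 64712 in Grsf1cKO mice). These sums overlapped between genotypes, and each is made up mostly of its brightest marker, *Dcn* and *Itgam*. Without Grsf1cKO 3 the medians of these lists were 0.06 and -0.12. Of 2 satellite cell markers tested, *Vcam1*, which is also expressed by endothelial and other cells, had a log2 fold change of 0.36 (unadjusted p = 0.039, FDR 0.996 in limma) without overlap, and *Pax7*, named after its value was seen, was at 0.10. *Myf5*, whose locus drives the Cre, was above background in 0 mice. The median log2 fold changes of endothelial, adipocyte, smooth muscle and erythroid markers were -0.06, -0.04, -0.11 and -0.08. With 1 mouse left out the adipocyte median ran from -0.37 to 0.24, the erythroid median from -0.35 to 0.14 and the smooth muscle median from -0.14 to 0.02, so these had no stable direction. With unnormalized signal the endothelial median was 0.04. The brightest markers of these and the other lists given here, *Tnnt3* (fiber), *Dcn* (fibroblast), *Itgam* (leukocyte), *Cdh5* (endothelial), *Fabp4* (adipocyte), *Acta2* (smooth muscle) and *Hba-a1* (erythroid), had log2 fold changes of 0.02, 0.03, -0.13, -0.06, -0.11, 0.14 and -0.02. None of these markers was called, and the part of cell makeup in the values of the family was not tested.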

How the data were processed

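Cy3-labeled RNA was hybridized to Agilent 1-color arrays, 8 arrays for 6 mice. The authors deposited the Feature Extraction (version 12.0.3.1) output of each array, in which the processed signal is a background-corrected linear spot intensity, and a table of scores, *z*-scores of the log2 signal over each array, which differed from recomputed scores by at most 0.005. The methods describe quantile normalization, but the deposited scores were computed on unnormalized signal.

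From the processed signal, control spots were left out, flagged spots were treated as missing, quantile normalization was applied over the 8 arrays, and log2 values of replicate spots, then of repeat arrays, were averaged. A probe was tested if at least 3 mice had it well above background and each genotype had at least 2 values. The limma (3.58.1, R 4.3.3) fit had genotype and no other term. The number of mice limits the precision. Single values were also compared by a 2-sided exact permutation test. Symbols came from accessions in a RefSeq table of GRCm38.p6. The array grid is annotated to mm9, and no probe coordinates are given. The test was checked on simulated data. The members, gene lists and tests were chosen with earlier results of these data known. Named genes are all members, listed genes that were called or that had an unadjusted p under 0.05 without overlap (at most 4 per list), the brightest gene of each list given, and the 5 probes most like and the 5 most opposite to *Grsf1*. Exceptions, chosen after their values were seen, are *Hnrnpa2b1*, *Hnrnpdl*, *Fastkd1*, *Rbm20*, *Myh1*, *Myh2*, *Myh4*, *Myh7*, *Tnnt1* and *Pax7*, and *Myf5* is named for the Cre. For a listed gene the brightest probe was used. *Hbb-bs* of the 3 erythroid markers had no probe under that symbol. A further marker list is not reported here. Alternatives covered normalization (75th percentile), background correction (normexp, offset 50), the deposited scores, the filter on dim probes and repeat arrays. They also covered slide, an intensity trend, the replicate block, a *z*-test modeled on the methods and each mouse left out.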

Additional observations from a re-analysis of the deposited data

How the results depend on the processing

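The log2 fold change of *Grsf1* was -2.22 to -2.08 over 19 alternatives, and -2.22 to -2.16 with 1 mouse left out. Under the replicate block it was -2.19 with an FDR of 0.250 in limma, past the 0.2 limit, and the block changed no other call among the members. The numbers did not meet the rule for pairing, since the correlations of same-numbered mice's deviations were 0.23, 0.10 and 0.10, with the lowest at 0.097 and not over 0.1, and the samples share only a number. The relatives' probes stayed uncalled in all 19 alternatives, in none of which their change reached the 1.5-fold that a call requires.

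With the deposited *z*-scores turned back by each array's own mean and SD, which gives unnormalized signal and moved the median of all tested probes to 0.14, the log2 fold changes of *Hnrnph1*, the brighter *Hnrnph2* probe and *Hnrnph3* became 0.0356, 0.0103 and 0.0552. With *z*-scores on one common scale, chosen after seeing the data, that median was -0.05. With 1 mouse left out, the dimmer *Hnrnpf* probe ran from -0.0557 to 0.161 and the dimmer *Hnrnph2* probe from -0.201 to 0.0423, reversing without WT 1. Counts over the array were 1 higher and 2 lower probes. There were 2 higher probes with normexp, own-mean *z*-scores or the intensity trend, 1 lower on the shared slide and 0 lower with the block. A *z*-test modeled on the methods called 98 higher and 281 lower probes. It used quantile-normalized log2 values of the mice and a normal p, without the *z*-ratio and further filters that the methods describe. The authors' own procedure was therefore not repeated. This *z*-test gave the brighter *Hnrnpf* probe its lowest FDR, 0.0663, without reaching 1.5-fold. With 1 mouse left out, 1 to 2 were higher and 1 to 2 lower. In these fits the smaller genotype has 2 mice.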
